A study of Mus musculus with 4 samples.

Results

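Chemokine ligands are small secreted proteins that attract leukocytes. Their genes were described here in dendritic cells grown from mouse bone marrow, in which the nuclear receptor gene Nr4a3 had or had not been silenced. The members were all named genes whose symbol begins with Ccl, Cxcl, Cx3cl or Xcl followed by a number, together with Pf4 and Ppbp, which encode CXC chemokines of platelets. Of 19938 named genes on the array, 36 met this rule. They comprised 19 CC genes, 15 CXC genes with Pf4 and Ppbp, and Cx3cl1 and Xcl1. The other 6 matching symbols (Ccl21a, Ccl21b, Ccl21c, Ccl21d, Ccl27a and Ccl27b) were carried by probe sets that name several genes, and were not used.

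The study asked what NR4A3 does in dendritic cells. Bone marrow cells were grown with 20 ng/mL GM-CSF and 10% serum, and all groups received an siRNA by electroporation on day 10. The 4 groups, with 1 array each, were control siRNA unstimulated, control siRNA with LPS, NR4A3 siRNA unstimulated and NR4A3 siRNA with LPS. LPS, the bacterial product sensed by TLR4, was given at 100 ng/mL from 24 hours after the siRNA, and the RNA was taken after 24 hours of LPS. The labels name the mice BALB/c in one field and C57BL/6 in another, and state neither the siRNA sequence nor whether the arrays came from separate cultures or animals. A difference between 2 arrays therefore carries neither a replicate check nor a p-value. Average effects over all 4 arrays were tested with an additive limma fit. Its p-values set an effect against the difference of LPS effects between the siRNAs and a variance pooled over genes. An effect that differs between the states thus gets a larger p-value. The p-values measure no spread between replicates, and the array noise they hold may be technical.

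The targeted gene was checked first. Nr4a3 stood at 11.21 (log2) with control siRNA and 7.15 with NR4A3 siRNA in unstimulated cells, and at 11.77 and 9.39 with LPS. Its level was 16.6-fold and 5.21-fold lower with its siRNA, respectively, so silencing was less deep in the LPS pair. Array medians lay between 6.37 and 6.42 on the log2 scale. Of 10 dendritic cell markers, 9 reached the level filter on all 4 arrays and Flt3 on none. Of 10 macrophage markers, 8 reached it on all 4 arrays and 0 lay below it on all, so these lists do not set dendritic cells apart from macrophages. The 7 measured B cell markers and the 4 measured erythroid markers were below the filter on every array, as were 7 of 8 T and NK cell markers, 8 of 10 neutrophil markers and 8 of 10 mast cell, basophil and eosinophil markers. Of 10 stromal and endothelial markers, 5 reached the filter on all 4 arrays, 2 on some, and Lum, Pdgfra and Pecam1 on none.

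Chemokines are classed by the spacing of their first cysteines (CC, CXC, CX3C and XC) and act on G protein-coupled receptors of the target cell. Activated dendritic cells are known for producing inflammatory chemokines that recruit monocytes, neutrophils and effector T cells. In the mouse many of the genes lie in clusters, and their induction by LPS is known to run through NF-kB and, for the CXCR3 ligands, through interferon-regulated elements.

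The promoters of 5 LPS-responsive CXC genes are shown because, on average over the siRNAs, these genes were higher with LPS by the largest factors among members with an entry in the RefSeq promoter table. The sequences are those of GRCm38.p6, read 5′ to 3′ on the strand of the gene and ending at the base before its annotated start. Capitals mark letters that match an interferon-stimulated response element (ISRE, the letters GAAA, then any 2 bases, then GAAA again) or the NF-kB motif of 10 letters, searched on both strands. Cxcl10 lies on the minus strand at chr5:92348890-92349139, and Cxcl9 on the minus strand at chr5:92328080-92328329. For Cxcl1 (chr5:90891125-90891244), Cxcl2 (chr5:90903779-90903898) and Cxcl3 (chr5:90785981-90786100), all on the plus strand, the 120 bases nearest to the start are given.
Cxcl10: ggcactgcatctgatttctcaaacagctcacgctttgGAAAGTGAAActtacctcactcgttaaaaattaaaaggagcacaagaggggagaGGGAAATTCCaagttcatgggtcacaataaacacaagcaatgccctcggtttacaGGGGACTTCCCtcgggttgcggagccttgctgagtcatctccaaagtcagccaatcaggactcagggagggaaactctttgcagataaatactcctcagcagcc
Cxcl9: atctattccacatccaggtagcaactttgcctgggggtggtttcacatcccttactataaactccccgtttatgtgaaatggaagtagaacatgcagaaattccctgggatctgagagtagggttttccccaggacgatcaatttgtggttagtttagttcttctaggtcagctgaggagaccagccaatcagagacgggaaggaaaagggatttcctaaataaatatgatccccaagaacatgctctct
Cxcl1: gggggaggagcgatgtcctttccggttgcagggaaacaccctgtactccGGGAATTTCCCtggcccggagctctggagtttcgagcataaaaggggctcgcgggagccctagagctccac
Cxcl2: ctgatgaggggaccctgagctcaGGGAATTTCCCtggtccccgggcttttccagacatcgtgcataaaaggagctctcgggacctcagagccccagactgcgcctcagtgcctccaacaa
Cxcl3: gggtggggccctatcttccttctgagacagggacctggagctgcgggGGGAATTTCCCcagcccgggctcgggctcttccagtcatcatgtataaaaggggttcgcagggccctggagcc

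In Cxcl10, the first capitals are the ISRE match, which begins 213 bases before the start, and the next are NF-kB matches that begin 159 and 104 bases before it. The second of these regions holds overlapping matches. The same NF-kB letters, GGGAATTTCC, were found in Cxcl1, Cxcl2 and Cxcl3, beginning 71, 97 and 73 bases before the start, and each match overlaps another on the opposite strand. The Cxcl9 window held neither motif. Among 32851 promoter windows of 250 bases, 2.98% held the ISRE letters and 7.25% the NF-kB motif. Of the 26 windows available for 25 members, 3 held the ISRE letters (Ccl19, Cxcl10 and Cxcl14) and 7 the NF-kB motif (Ccl1, Ccl9, Ccl20, Cxcl1, Cxcl2, Cxcl3 and Cxcl10). The NBRE letters AAAGGTCA, to which NR4A receptors bind, were in 1.34% of all windows and in 1 member window, that of Ccl6. The other 11 members had no entry in the promoter table and were not searched for any of the motifs. They were Ccl2, Ccl4, Ccl5, Ccl7, Ccl11, Ccl24, Ccl26, Cxcl5, Cxcl11, Cxcl16 and Cxcl17. A match of letters does not show a used site.

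A member was counted in a comparison when its levels differed at least 2-fold between the 2 arrays and the brighter array reached 6.66, the median of all named genes over the 4 arrays. At this level filter, 17 of the 36 members lay at or above 6.66 on all 4 arrays, 6 on some and 13 on none. With LPS under control siRNA, 9 of 36 members were counted as higher, where 2.59% of all named genes and 5.0% of those at the level filter were. The 9 were Cxcl11, Cxcl10, Cxcl9, Cxcl3, Cxcl2, Cxcl1, Ccl2, Ccl7 and Cx3cl1. Ppbp and Cxcl13 were counted as lower, against 1.99% of all named genes and 3.83% of those at the filter. Under NR4A3 siRNA, 12 members were counted as higher with LPS (2.76% of all named genes and 5.31% of those at the filter) and Ppbp alone as lower (1.41% and 2.71%). The 12 held the same 9 genes and in addition Ccl5, Ccl22 and Cxcl16. The median LPS difference over the 36 members was 0.22 on the log2 scale with control siRNA and 0.05 with NR4A3 siRNA, where that of all named genes was 0.0002 and -0.02. Both medians include the 13 members below the filter on all arrays, so they do not compare the response under the siRNAs. Over the 23 members that reached the filter on some array, the LPS effect averaged over the siRNAs had a median of 1.09, beside 0.001 over all genes at the filter.

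**Figure D1:**
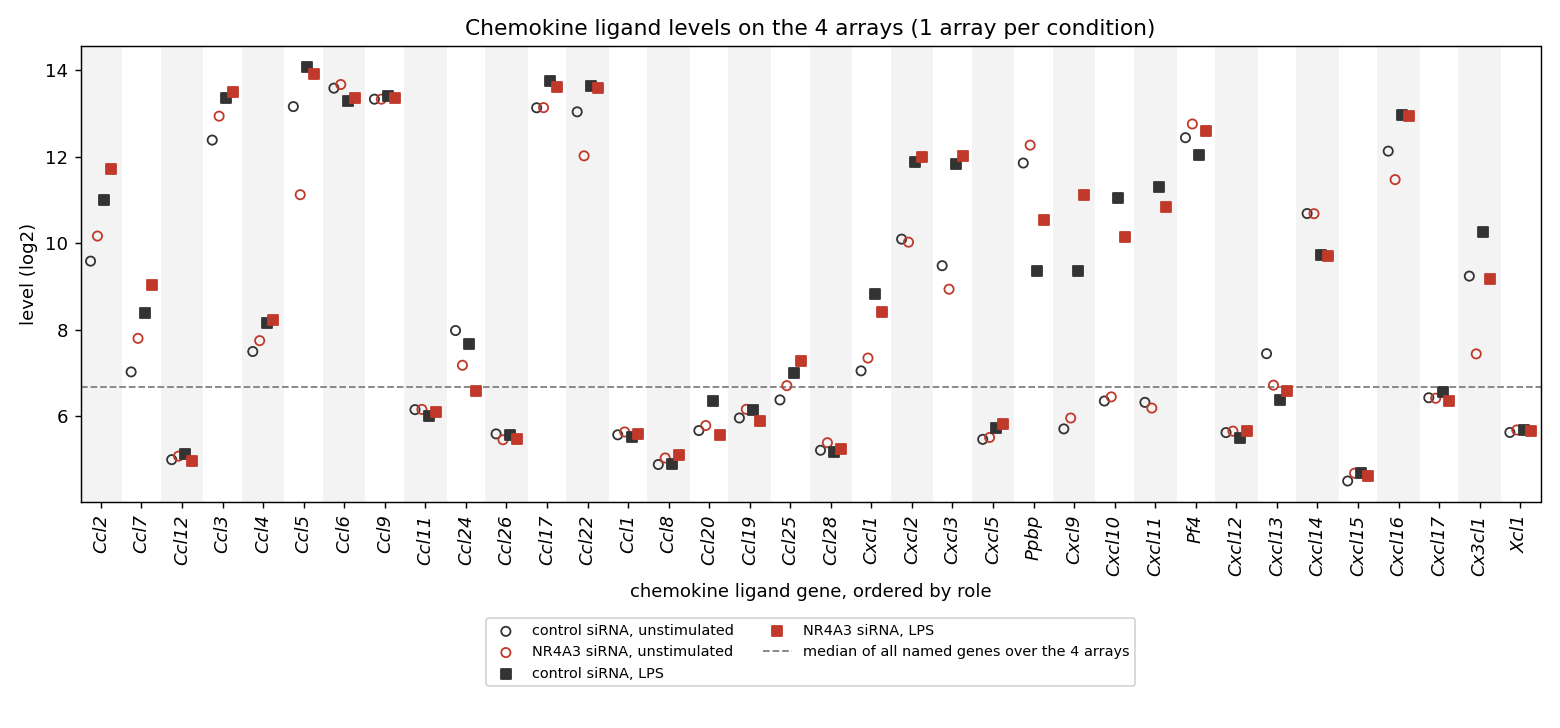
Levels (log2, vertical axis) of the 36 chemokine ligand genes on the 4 arrays, ordered by role. Open circles are unstimulated and filled squares LPS-treated cells, in black for control and red for NR4A3 siRNA, and the dashed line is the level filter at 6.66. The Ccl5, Ccl22 and Cx3cl1 circles of NR4A3 siRNA lie below all other symbols of their gene, and levels of different genes are not comparable since each has its own probes.

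Averaged over the siRNAs, LPS raised 16 members and lowered 3 at an adjusted p under 0.05 in the limma fit. In the same fit 15.6% of the 10592 genes tested rose and 14.4% fell. The fit held the 23 members that reached 6.66 on at least 1 array, 6 of them not on all arrays. Without a level filter all 36 members were tested, and 15 rose and 2 fell, where 7.64% of all 19938 genes rose and 6.62% fell.

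Markers of other cells also differed between LPS-treated and unstimulated arrays. The summed log2 level of the 10 stromal and endothelial markers was 65.6 and 65.8 without LPS and 72.6 and 73.5 with LPS, for control and NR4A3 siRNA. Dcn, the decorin gene, stood at 7.30 and 7.06 without LPS and at 9.99 and 10.31 with it, and Kdr, a VEGF receptor gene, at 6.69 and 6.53 and at 9.46 and 9.66. The collagen genes Col1a1, Col1a2 and Col3a1 lay between 6.80 and 7.26 on all arrays. Of the 10 macrophage markers, LPS went with levels up by 2-fold or more for 3 and down by as much for 4, under either siRNA. The part of these cells or states in the LPS differences of the ligands was not tested.

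The CXCR3 ligands Cxcl9, Cxcl10 and Cxcl11, which attract effector T cells and NK cells and are induced by interferons, rose the most. Cxcl11 stood at 6.31 and 6.18 in unstimulated cells with control and NR4A3 siRNA, and at 11.29 and 10.85 with LPS. Cxcl10 stood at 6.35 and 6.44 without LPS and at 11.04 and 10.13 with LPS. Both LPS arrays lay far above both unstimulated arrays for either gene, and all unstimulated values were below the level filter, so the folds are approximate. On average LPS raised Cxcl11 28.3-fold (4.82 ± 0.12 on the log2 scale, SE, limma adjusted p = 2.28e-05) and Cxcl10 18.3-fold (4.19 ± 0.23, adjusted p = 0.000177). Without a level filter, through which both genes had passed by their LPS arrays, limma gave adjusted p = 0.000271 and 0.00182. With LPS, Cxcl10 was 1.88-fold and Cxcl11 1.36-fold lower with NR4A3 siRNA than with control siRNA. Their average silencing effects did not pass the test, with adjusted p = 0.319 and 0.189 in limma's additive fit.

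Cxcl9 followed another order. It stood at 5.70 and 5.95 in unstimulated cells with control and NR4A3 siRNA, both below the level filter, and at 9.36 and 11.12 with LPS. The highest of the 4 arrays for Cxcl9 was thus NR4A3 siRNA with LPS, while for Cxcl10 and Cxcl11 it was control siRNA with LPS. LPS raised Cxcl9 about 21.3-fold on average (4.41 ± 0.33, limma adjusted p = 0.000483, and 0.00379 without a level filter). The fold was 12.7 under control siRNA and 35.9 under NR4A3 siRNA, both approximate because the unstimulated arrays lay below the level filter. With LPS, its level was 3.37-fold higher with NR4A3 siRNA, the 6th highest such difference among all named genes, no level filter applied. The average silencing effect, 1.00 ± 0.33, did not pass the limma test (adjusted p = 0.13). The difference without LPS was 0.25. In the RefSeq order of protein-coding genes, Cxcl9 and Cxcl10 lie on either side of Art3.

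Among the neutrophil attractants that act on CXCR2, Cxcl1, Cxcl2 and Cxcl3 rose with LPS, Cxcl5 was below the level filter on all arrays, and Ppbp fell. Cxcl3 stood at 9.48 and 8.93 in unstimulated cells with control and NR4A3 siRNA, and at 11.84 and 12.02 with LPS. Cxcl2 stood at 10.09 and 10.02 without LPS and at 11.87 and 11.99 with it. Cxcl1 stood at 7.04 and 7.34 without LPS and at 8.81 and 8.39 with it. In all 3 genes both LPS arrays lay above both unstimulated arrays, and the siRNAs differed by less than LPS did. The average increase was 6.6-fold for Cxcl3 (2.72 ± 0.18, limma adjusted p = 0.000316), 3.66-fold for Cxcl2 (1.87 ± 0.10, adjusted p = 0.000186) and 2.66-fold for Cxcl1 (1.41 ± 0.18, adjusted p = 0.00301). The LPS difference of Cxcl3 was 2.36 with control and 3.08 with NR4A3 siRNA, whereas that of Cxcl1 was 1.77 and 1.05. These are the 3 genes whose promoters share the NF-kB letters given above.

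Ppbp, which encodes the precursor of the platelet chemokine CXCL7, ran the other way. It stood at 11.85 and 12.27 in unstimulated cells with control and NR4A3 siRNA, and at 9.36 and 10.54 with LPS. Both LPS arrays lay below both unstimulated arrays, and in either state NR4A3 siRNA had the higher value. LPS lowered it 4.32-fold on average (-2.11 ± 0.19, limma adjusted p = 0.000846). The siRNAs differed 1.33-fold without LPS and 2.27-fold with LPS, and the average silencing effect, 0.80 ± 0.19, missed the threshold (limma adjusted p = 0.0692). Pf4, the neighbouring platelet factor gene, stood at 12.44 and 12.76 without LPS and at 12.04 and 12.59 with LPS. Its average LPS effect was -0.28 (limma adjusted p = 0.101) and its average silencing effect 0.43 (adjusted p = 0.0775), neither past the threshold. Both Pf4 effects did pass with a prior variance that follows the mean level, and its LPS effect also with repeated quantile normalization. In the RefSeq gene order Ppbp, Pf4 and Cxcl3 follow one another, and their average LPS effects were -2.11, -0.28 and 2.72.

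Of 10 megakaryocyte and platelet markers, 6 were measured, and Itga2b, Gp9, Gp5 and Clec1b lay below the level filter on all arrays. The summed log2 level of the 6 was 40.5 and 41.8 without LPS and 38.6 and 39.5 with LPS, for control and NR4A3 siRNA. Vwf, the von Willebrand factor gene on that list, stood at 8.32 and 9.12 without LPS and at 7.11 and 7.56 with LPS, the same order of the 4 arrays as that of Ppbp. Treml1, the other marker at the filter, stood at 7.26 and 7.42 without LPS and at 6.99 and 7.13 with LPS, also in that order. Itga2b, the integrin alpha IIb gene, which lay below the filter, had the opposite sign, at 6.34 and 6.39 without LPS and 6.62 and 6.56 with it. The order of Ppbp was not limited to that list: of the 33 markers of all lists that reached the filter on some array, 10 had it, 6 of them macrophage markers, beside 13.1% of all named genes at the filter. Mmp8, a neutrophil collagenase gene, was among them, at 12.74 and 12.76 without LPS and at 10.51 and 11.59 with LPS, as was the mannose receptor gene Mrc1, at 10.69 and 11.26 and at 6.71 and 7.40. The part of any such cells in the Ppbp and Pf4 values was not tested. In bulk RNA, fewer cells of a type and less RNA per cell cannot be told apart.

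**Figure D2:**
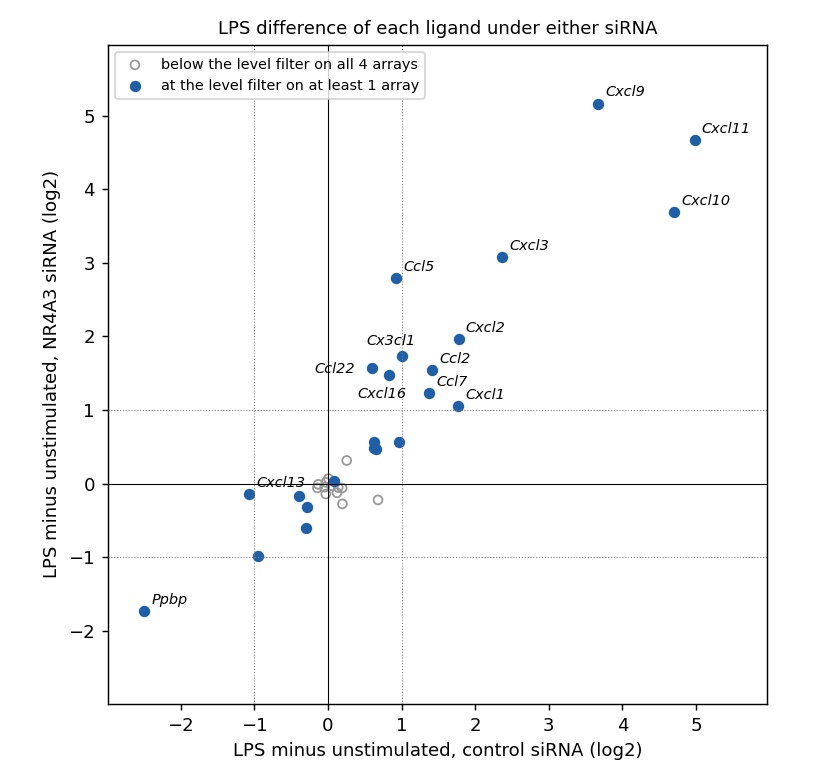
Difference between LPS and unstimulated cells (log2) for each of the 36 ligand genes, with control siRNA on the horizontal and NR4A3 siRNA on the vertical axis; dotted lines mark 2-fold. Filled points reached the level filter on at least 1 array and open points on none. Cxcl9, Cxcl10 and Cxcl11 lie at the upper right, between 3.66 and 5.16 on either axis, and Ppbp lies at the lower left.

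The monocyte attractants Ccl2 and Ccl7, ligands of CCR2 and neighbours in the genome, rose both with LPS and with silencing. Ccl2 stood at 9.58 and 10.16 in unstimulated cells with control and NR4A3 siRNA, and at 11.00 and 11.71 with LPS. Ccl7 stood at 7.02 and 7.80 without LPS and at 8.39 and 9.03 with LPS. For both genes the 4 arrays ran in the same order, lowest with control siRNA unstimulated and highest with NR4A3 siRNA and LPS. LPS raised Ccl2 2.79-fold (1.48 ± 0.10, limma adjusted p = 0.000346) and Ccl7 2.47-fold (1.30 ± 0.10, adjusted p = 0.000536). Silencing raised Ccl2 1.56-fold (0.64 ± 0.10, limma adjusted p = 0.0287) and Ccl7 1.63-fold (0.71 ± 0.10, adjusted p = 0.024). Neither reached 2-fold in a single siRNA pair. Their calls for silencing were lost with cyclic loess between arrays (adjusted p = 0.0532 for Ccl2 and 0.0521 for Ccl7, limma) and without a level filter (0.0573 and 0.0533). Ccl12, the other gene of this group, was below the level filter on all arrays.

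Among Ccl3, Ccl4, Ccl5, Ccl6 and Ccl9, CC ligands that recruit monocytes and other leukocytes, Ccl5 had the widest range over the 4 arrays. Ccl5, known as RANTES, stood at 13.16 with control siRNA and 11.12 with NR4A3 siRNA in unstimulated cells, and at 14.09 and 13.91 with LPS. The unstimulated NR4A3 siRNA array was the low value, and the other 3 arrays lay within 0.92 of one another. Ccl5 was 4.11-fold lower with NR4A3 siRNA without LPS and 1.13-fold lower with LPS, where its levels lay near 14.25, the highest value on the array of control siRNA with LPS. The LPS difference was accordingly 1.90-fold with control and 6.92-fold with NR4A3 siRNA. LPS raised Ccl5 3.62-fold on average (1.86 ± 0.40, limma adjusted p = 0.0196), a call lost without a level filter (adjusted p = 0.0611, limma). The average silencing effect, -1.11 ± 0.40, did not pass the limma test (adjusted p = 0.156).

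Ccl3 and Ccl4, the MIP-1 alpha and beta genes, rose less. Ccl3 stood at 12.39 and 12.94 without LPS and at 13.35 and 13.51 with LPS, for control and NR4A3 siRNA, and rose 1.70-fold on average (limma adjusted p = 0.00781). Ccl4 stood at 7.49 and 7.74 without LPS and at 8.15 and 8.22 with LPS, and rose 1.48-fold (adjusted p = 0.0114, limma). Neither was counted at 2-fold in any pair of arrays. Ccl9 stayed between 13.33 and 13.41 on the 4 arrays. Ccl6 ranged from 13.30 to 13.67, and its average LPS effect, -0.30, did not pass the test (limma adjusted p = 0.0641). The Ccl6 effect did pass with repeated quantile normalization and with a prior variance that follows the mean level. Ccl6 and Ccl9 are CC ligands of CCR1 found in mouse myeloid cells.

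With NR4A3 siRNA in unstimulated cells, 3 of 36 members were counted as lower, namely Ccl5, Cx3cl1 and Ccl22, and 0 as higher. Of all named genes 0.883% were lower and 0.105% higher by the same rule, and of those at the level filter 1.72% and 0.205%. The median over the members was 0.06, beside 0.03 over all named genes. The 24 of 36 members with a difference above 0 include members below the level filter on all arrays. No share of all named genes above 0 was computed, so this count is not read as a result about the members. Over the 23 members in the limma fit, the average silencing effect was above 0 for 10 and below 0 for 13. With LPS, 2 members were counted as lower (Ccl24 and Cx3cl1) and 2 as higher (Cxcl9 and Ppbp), where 0.858% of all named genes were lower and 0.241% higher, and 1.67% and 0.47% of those at the level filter. Over the 4 arrays, the limma fit called 2 members higher with silencing (Ccl2 and Ccl7) and 2 lower (Cx3cl1 and Ccl24) of the 23 tested. Of all genes tested, 1.98% were higher and 3.58% lower.

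**Figure D3:**
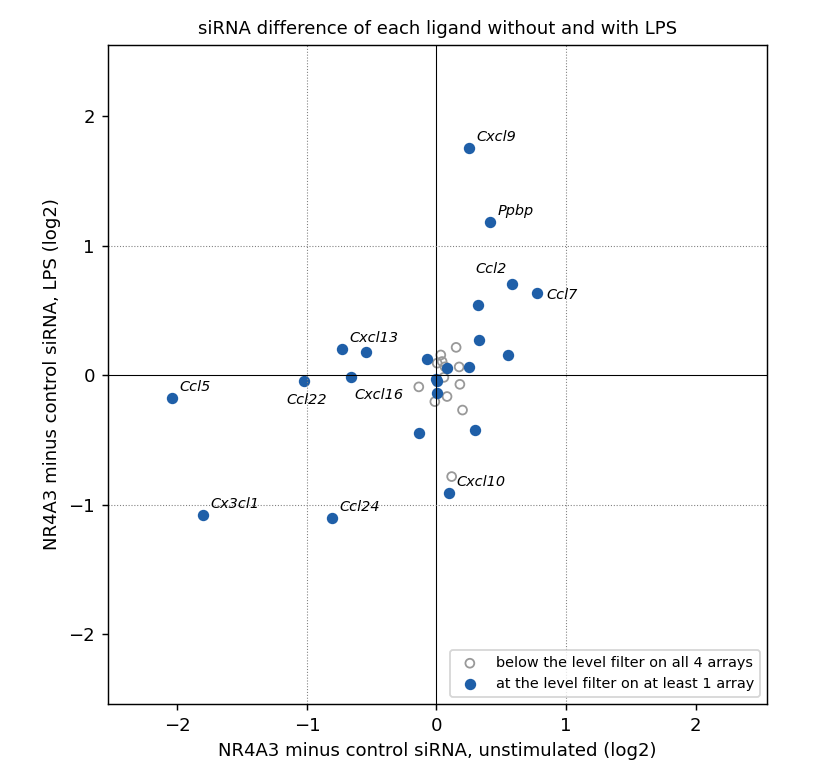
Difference between NR4A3 and control siRNA (log2) for each of the 36 ligand genes, without LPS on the horizontal and with LPS on the vertical axis; dotted lines mark 2-fold. Cx3cl1 lies beyond 2-fold on both axes and Ccl24 near that corner, while Ccl5 and Ccl22 are low on the horizontal axis and near 0 on the vertical axis. Open points were below the level filter on all 4 arrays.

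Cx3cl1, which encodes fractalkine, a membrane-bound chemokine that can be shed and binds CX3CR1 on monocytes, was the member counted as lower in both states. It stood at 9.24 with control and 7.44 with NR4A3 siRNA in unstimulated cells, and at 10.25 and 9.17 with LPS. The value of NR4A3 siRNA with LPS lay close to that of control siRNA without LPS. Cx3cl1 was 3.48-fold lower with NR4A3 siRNA without LPS and 2.11-fold lower with LPS, and silencing lowered it 2.71-fold on average (-1.44 ± 0.18, limma adjusted p = 0.0178). LPS raised it 2.59-fold (1.37 ± 0.18, adjusted p = 0.00342, limma). Its call for silencing was lost without a level filter (adjusted p = 0.0587, limma).

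Ccl22 and Ccl17 are the ligands of CCR4, through which dendritic cells attract regulatory and helper T cells. Ccl22 stood at 13.04 with control and 12.02 with NR4A3 siRNA in unstimulated cells, and at 13.64 and 13.60 with LPS. As with Ccl5, the unstimulated NR4A3 siRNA array was the low one, 2.03-fold below its control, and the LPS arrays differed 1.03-fold. Ccl17 stood at 13.13 and 13.14 without LPS and at 13.76 and 13.62 with LPS, so the siRNAs differed by less than LPS did in either state. LPS raised Ccl22 2.13-fold (1.09 ± 0.22, limma adjusted p = 0.0168) and Ccl17 1.47-fold (0.56 ± 0.10, adjusted p = 0.0106). Silencing gave adjusted p = 0.208 for Ccl22 and 0.719 for Ccl17 in limma's fit. Ccl22, Cx3cl1 and Ccl17 follow one another in the RefSeq gene order, and their siRNA differences without LPS were -1.02, -1.80 and 0.003.

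Ccl24, an eotaxin that attracts eosinophils through CCR3, stood at 7.98 with control and 7.17 with NR4A3 siRNA in unstimulated cells, and at 7.68 and 6.57 with LPS. NR4A3 siRNA gave the lower value in either state, and that with LPS was just below the level filter. Silencing lowered it 1.94-fold on average (-0.95 ± 0.11, limma adjusted p = 0.0167), a call kept under each of the 6 alternatives that could be fitted for it. LPS lowered it 1.37-fold (-0.45, limma adjusted p = 0.0327). That call was lost with cyclic loess (-0.43, adjusted p = 0.0504, limma) and without a level filter (-0.45, adjusted p = 0.0551). Its neighbour Ccl26 and the eotaxin Ccl11 were below the level filter on every array.

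**Figure D4:**
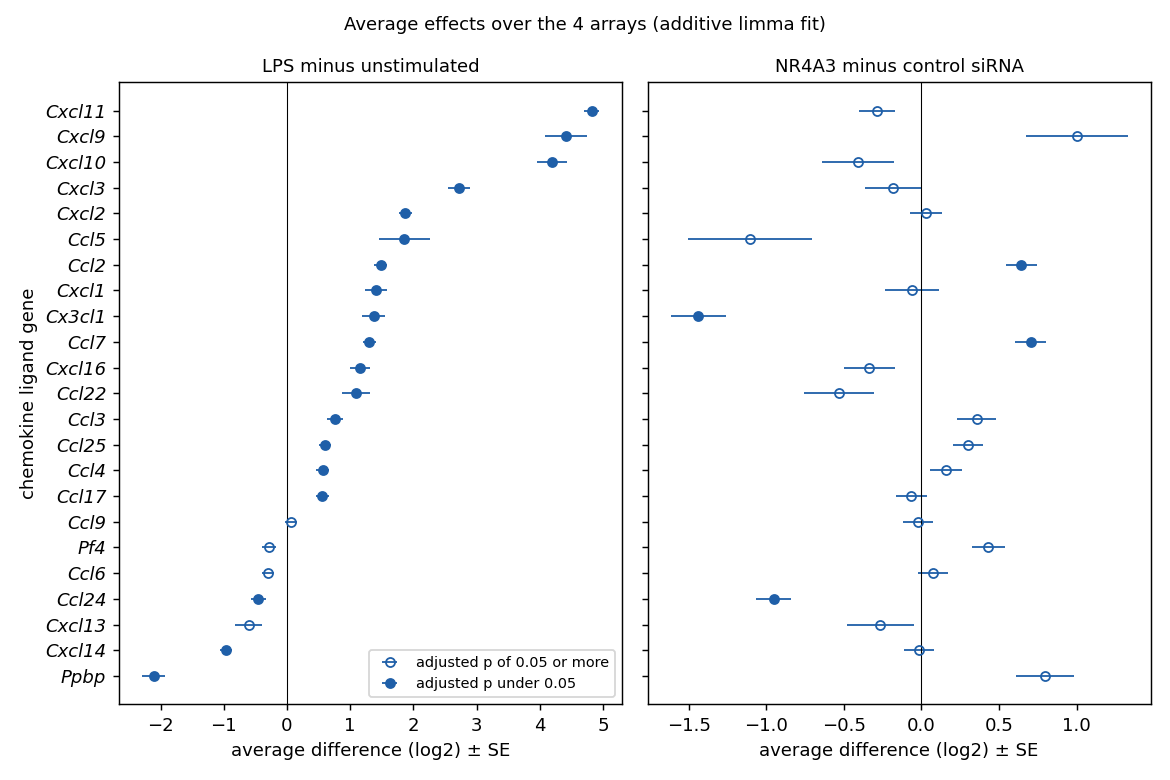
Average effects of LPS (left) and of NR4A3 silencing (right) on the 23 ligand genes that reached the level filter, as log2 differences with their standard errors from the additive limma fit over 4 arrays. Filled points passed an adjusted p of 0.05: 16 higher and 3 lower with LPS, and 2 higher and 2 lower with silencing.

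Of the remaining CXC genes, Cxcl16 encodes a transmembrane chemokine for CXCR6 on T cells. It stood at 12.13 with control and 11.47 with NR4A3 siRNA without LPS, and at 12.96 and 12.95 with LPS. Again the unstimulated NR4A3 siRNA array was lowest, here by 1.58-fold below its control. LPS raised Cxcl16 2.23-fold (1.16 ± 0.16, limma adjusted p = 0.0047). Cxcl14, an epithelial chemokine whose receptor is less clear, stood at 10.69 and 10.68 without LPS and at 9.73 and 9.70 with LPS. It fell 1.96-fold with LPS (-0.97 ± 0.10, limma adjusted p = 0.00133), and the siRNAs differed by 0.03 at most. Cxcl13, a B cell attractant, stood at 7.44 with control and 6.71 with NR4A3 siRNA without LPS, and at 6.37 and 6.57 with LPS. The control siRNA array without LPS was the high value, and the average LPS effect of -0.61 did not pass the limma test (adjusted p = 0.0874).

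Ccl25, which draws T cells to the gut through CCR9, rose 1.52-fold with LPS (limma adjusted p = 0.00713). Its brightest probe set stood at 6.37 and 6.70 without LPS and at 7.00 and 7.27 with LPS for control and NR4A3 siRNA. A second probe set gave 6.30 and 6.45 without LPS and 6.76 and 6.51 with it, so the probe sets differ on the order of the siRNAs under LPS. Under NR4A3 siRNA the second probe set changed little with LPS. With the probe sets averaged, the average LPS effect of Ccl25 was 0.43 on the log2 scale, where the brightest probe set gave 0.60. The 13 members below the level filter on all arrays were Ccl1, Ccl8, Ccl11, Ccl12, Ccl19, Ccl20, Ccl26, Ccl28, Cxcl5, Cxcl12, Cxcl15, Cxcl17 and Xcl1. Their values lay between 4.49 and 6.56, and the range of a gene over the 4 arrays was between 0.06 and 0.78. The widest of these ranges was that of Ccl20, a CCR6 ligand, which stood at 5.66 and 5.78 without LPS and at 6.34 and 5.56 with LPS. The CCR7 ligand Ccl19 was read by 5 probe sets, between 5.66 and 6.15 on all arrays.

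The LPS difference under NR4A3 siRNA minus that under control siRNA uses each array once and leaves nothing to test it against. It was at least 2-fold for Ccl5 (1.87) and Cxcl9 (1.5) upwards and for Cxcl10 (-1.01) downwards. By the same rule 0.346% of all named genes were counted upwards and 0.296% downwards, and 0.651% and 0.557% of those at the level filter. The Ccl5 value comes from the low unstimulated NR4A3 siRNA array and the Cxcl9 value from the high LPS array with NR4A3 siRNA. Repeated quantile normalization brought Cxcl10 to -0.97 and Ccl22, which had been at 0.97, to 1.02. The median of this difference was -0.03 over the 36 members and -0.002 over all named genes. It was below 0 for 20 of the 36 members. No share of all named genes below 0 was computed, so this count is not read as a result about the members.

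Markers of maturation and of macrophages differed between the siRNAs beside these ligands. Over the 10 dendritic cell markers the summed log2 level was 110.2 with control and 98.7 with NR4A3 siRNA without LPS, and 112.6 and 108.4 with LPS. Without LPS, NR4A3 siRNA gave levels lower by 2-fold or more for 3 of the 10, Ccr7, Fscn1 and Cd83. By the counting rule 0.883% of all named genes were lower in that pair. Dpp4 stood at 8.45 with control and 7.48 with NR4A3 siRNA without LPS, and Zbtb46 at 7.20 and 6.93. Flt3, below the level filter on all arrays, stood at 6.33 and 5.58. Itgax, Cd74, H2-Aa and H2-Ab1 differed little. The 10 macrophage markers summed to 99.7 and 103.9 without LPS and to 96.7 and 102.6 with LPS. In either state 3 of them, C1qa, C1qb and C1qc, were at least 2-fold higher with NR4A3 siRNA. Of all named genes, 0.105% were counted as higher without LPS and 0.241% with LPS. Among the other macrophage markers the signs were mixed. Cd14 and Marco were lower with NR4A3 siRNA in either state, as was Fcgr1 with LPS. The median difference over the 10 was 0.25 without LPS and 0.57 with it. The part of these cell states in the ligand differences was not tested.

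Of 24 chemokine receptor genes listed, 23 were measured and 10 reached the level filter. Among all genes tested in the fit, LPS raised 15.6% and lowered 14.4%, and silencing lowered 3.58%. LPS raised Ccr4, Cxcr5 and Ccrl2 and lowered Ccr2, Cxcr4 and Cx3cr1 on average, and silencing lowered Cxcr4 alone (limma adjusted p = 0.0193). Ccr4 reached the filter only with LPS, and Cxcr5 only on the array of control siRNA with LPS, at 7.46. Both genes thus entered the fit through arrays on which they were high. Their LPS effects are approximate, and no result without a level filter is given for them. Ccr4, the receptor of Ccl17 and Ccl22, stood at 6.19 and 6.08 without LPS and at 9.75 and 9.71 with LPS for control and NR4A3 siRNA. Ccr2, the receptor of Ccl2 and Ccl7, stood at 11.72 and 11.73 without LPS and at 9.72 and 10.09 with LPS, while both of its ligands rose. Cx3cr1, the receptor of Cx3cl1, stood at 7.08 and 7.17 without LPS and at 6.73 and 6.54 with LPS. Ccr7 was the single receptor counted as lower with NR4A3 siRNA without LPS, from 12.99 to 9.46, and Cxcr4 and Cxcr5 were the receptors counted as lower with NR4A3 siRNA in the LPS pair. Of all named genes, 0.883% were counted as lower in the pair without LPS and 0.858% in the LPS pair.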

How the data were processed

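Total RNA of 4 samples was hybridised to Affymetrix Mouse Gene 1.0 ST arrays. The deposited values are log2 expression made by the authors with RMA and quantile normalization, per the labels; Affymetrix Expression Console 1.1 appears in the submitters' processing notes. No genome build or filter is given in the sources used here. Quantile normalization hides a shift of most genes in 1 direction. Of 28856 probe sets, 21789 had 1 gene symbol in the platform annotation; each of 19938 genes was taken at its brightest probe set. The filter of 6.66 is the median of these genes.

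The additive fit of siRNA and LPS used limma 3.58.1 (lmFit and eBayes, 1 residual degree of freedom, prior 4.76, Benjamini-Hochberg over 10592 genes) and was tested on simulated data. Its residual holds the difference of LPS effects. The number of arrays limits the precision. Members and lists were chosen with earlier results of these data known. The genes named are Nr4a3, every ligand, and receptors counted in any comparison or, in the receptor paragraph, passing the fit; markers of the cell type lists and the gene Art3 were named after their values were seen. Promoters come from RefSeq (GRCm38.p6); the NBRE motif was added later.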

Additional observations from a re-analysis of the deposited data

How the results depend on the processing

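No paired analysis was possible because each group has 1 array and the labels give no replicate numbers. Median centring and averaging the probe sets of a gene left every member count as it was, and no member's difference changed its sign where counted. Below, a count is given only where it changed by more than a factor of 1.5, or to or from 0. Smaller changes, such as those of LPS with control siRNA under repeated quantile normalization, are left out. With 1.5-fold, members counted were 6 lower and 1 higher for silencing without LPS, 4 higher with LPS, 16 higher for LPS with control siRNA, 3 lower for LPS with NR4A3 siRNA, and 8 upwards and 2 downwards for the difference of LPS effects. With 3-fold they were 1 higher and 0 lower for silencing with LPS, 1 lower for LPS with control siRNA, 7 higher for LPS with NR4A3 siRNA, and 1 upwards and 0 downwards for the difference. The 75th percentile (8.67) as level filter left 1 lower for silencing with LPS and 1 lower for LPS with control siRNA. It also left 1 lower for average silencing, where 5.47% of all genes tested were lower. Repeated quantile normalization gave 2 lower for LPS with NR4A3 siRNA and 0 downwards for the difference. It gave 5 lower for average LPS, where 16.8% of all genes tested were lower. Cyclic loess gave 2 lower for LPS with NR4A3 siRNA and 0 higher for average silencing, where 0.472% of all genes tested were higher. Without a level filter, average silencing had 0 higher and 1 lower (0.12% and 0.662% of all genes). A trended prior gave 5 lower for average LPS (14.9% of all genes tested). At an unadjusted p under 0.05 in limma, silencing had 6 members higher and 3 lower with cyclic loess (11.9% and 13.5% of all genes), 7 and 3 without a level filter (10.0% and 7.47%), and 7 and 4 with the filter of 6.66 (14.8% and 11.4%). Fold and level thresholds change counts by construction. For the differences without a test, no share of all named genes was computed under the alternatives. Those member counts are therefore not read as results about the members. For the scalings the cause was not tested.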
